A study of Mus musculus with 24 samples.

Results

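The genes of the major histocompatibility complex (MHC) and of antigen processing were followed through 4 activated mouse immune cell types with and without miR-155. All symbols beginning with H2- were taken, together with B2m and 16 named genes of peptide supply, loading and invariant chain processing, which gave 58 members of 20673 gene symbols. Of these, 30 are class I heavy chain symbols, 10 are class II chain symbols, 17 are processing genes, and H2-Ke6 carries the prefix although it encodes a hydroxysteroid dehydrogenase. The study measured messenger RNA from C57BL/6J mice, either miR-155 knockout (KO) or wild type (WT), in 8 groups of 3 libraries, 24 in all. The series title asks how cellular context shapes regulation by this microRNA. Splenic B cells, KO and WT, were obtained by CD43 depletion and activated with IL-4 (6.5 ng/ml) together with LPS (25 ug/ml). Splenic CD11c+ dendritic cells, KO and WT, came from mice carrying B16 melanoma cells that express Flt3 ligand, and were activated with GM-CSF (20 ng/ml) together with LPS (100 ng/ml). Peritoneal macrophages, KO and WT, were elicited by thioglycollate and activated with 100 ng/ml LPS. CD4+CD25-CD44- T cells, KO and WT, came from lymph node and spleen and were activated by beads against CD3 and CD28. The labels do not give the age or sex of the mice. The 3 libraries of a condition are called sequencing replicates and no separate animals are named, so p-values cover only how these libraries vary, and that variation may be technical.

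Class I molecules present peptides cut by the proteasome in the cytosol. Tap1 and Tap2 carry the peptides into the endoplasmic reticulum, where Tapbp (tapasin), Calr, Canx and Pdia3 help load them onto a heavy chain paired with B2m, and Nlrc5 drives transcription of the class I genes. Class II molecules present peptides from endosomes. Cd74, the invariant chain, blocks their groove until Ctss, Lgmn and other proteases cut it, H2-DM then exchanges the remaining fragment for a peptide, H2-DO restrains H2-DM, and Ciita is the master coactivator of class II transcription. B cells and dendritic cells hold class II constitutively, macrophages acquire it mainly under interferon gamma, and mouse T cells make little of it.

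miR-155 recognises messenger RNAs through its seed, and the mature miR-155-5p and the sites in members are shown because they say which members carry a canonical match. The microRNA is given as in RefSeq (GRCm38.p6, chr16:84714143-84714165, plus strand), with seed bases 2 to 8 in capitals, and the sites are from the longest annotated 3' UTR in GENCODE M21, with the matched bases in capitals.
miR-155-5p: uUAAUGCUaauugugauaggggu
Ciita, 7mer-m8 site: cctccccgtAGCATTAtagttat
H2-Eb2, 7mer-A1 site: gtacaaattGCATTAActgattc
H2-Ea-ps, 8mer site: tcagtttccAGCATTAAgcctcaa
H2-Q1 and H2-Q2, 6mer site: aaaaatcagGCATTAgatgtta
The other 46 of the 51 members with an annotated 3' UTR held no seed match on the sense strand of that UTR, while 80.1% of all genes with a UTR held none. Across all genes the share whose best site was an 8mer was 3.11%, a 7mer-m8 5.41%, a 7mer-A1 4.3% and a 6mer 7.11%. Ciita was the 1 member with a 7mer-m8, and H2-Q1 and H2-Q2, both under 50 counts in every library, were the class I members with a site. H2-Ea-ps, the 1 member with an 8mer, had at most 3 counts in any library. A match is a description of the letters and not evidence of binding.

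The promoters of class II genes share the X and Y boxes, and stretches are shown so that their letters can be read beside those of class I genes. RefSeq promoter windows of GRCm38.p6 ran from 250 bases before to 50 bases after the start. The motifs searched on both strands were the Y box TGATTGG, the X box core and its shorter form AGNAAC, whose letters lie within the core, and the interferon-stimulated response element and the NF-kB site. Below, Y box and X box letters are in capitals, and each stretch is written along the strand of its gene.
H2-DMb1, chr17:34153093-34153137, plus strand: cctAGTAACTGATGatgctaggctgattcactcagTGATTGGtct
H2-Eb1, chr17:34305772-34305815, plus strand: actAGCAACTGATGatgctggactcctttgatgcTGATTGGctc
H2-Oa, chr17:34092299-34092343, plus strand: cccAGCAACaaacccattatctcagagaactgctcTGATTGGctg
H2-DMb2, chr17:34145123-34145166, plus strand: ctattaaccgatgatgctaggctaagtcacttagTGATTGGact
H2-Aa, chr17:34287864-34287907, minus strand: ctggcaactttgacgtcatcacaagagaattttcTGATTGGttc
H2-D1, class I, chr17:35263021-35263050, plus strand: gggtggcgagattccaggagCCAATCAgcg
H2-Q4, class I, chr17:35379542-35379571, plus strand: ggtgacgtgatcaccgggaaCCAATCAtcg
The Y box was found in 7 of the 8 class II genes with a window, in 15 of 22 class I genes and in 3 of 13 processing genes, against 9% of 27025 genes. Along the strand of the gene it read TGATTGG in all 7 of these class II genes and in 1 of the 15 class I genes, H2-T22, and CCAATCA, the same box on the other strand, in the other 14. The full X box core stood 31 or 32 bases before the Y box in H2-DMb1, H2-Eb1 and H2-Eb2 and was present in 0.359% of all genes. H2-DMb2, a near copy of H2-DMb1, lacked both X box spellings. The short X box stood in 6 of 8 class II, 12 of 22 class I and 3 of 13 processing genes (51.9% of all genes), the interferon-stimulated response element in 0, 2 and 3 of them (3.99%), and the NF-kB site in 5, 10 and 7 (53.5%).

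Gene counts per library ran from 7428821 to 14219823, and members took 0.824 to 2.6% of them. Marker genes were highest in the labelled cell types. The sum of 6 B cell markers averaged 3339 CPM (read counts scaled to a common library size) in KO and 3381 CPM in WT B cells, and that of 7 CD4 T cell markers 1594 CPM in KO and 1652 CPM in WT T cells. The sum of 8 macrophage markers averaged 13571 CPM in KO and 15895 CPM in WT macrophages, and that of 7 conventional dendritic cell markers 15132 CPM in KO and 11548 CPM in WT dendritic cells. Libraries of a group differed by more than counting noise everywhere, and most in WT macrophages, where replicate 3 stood farthest apart. In these bulk libraries fewer cells of a type and less RNA per cell cannot be told apart. The level of miR-155 itself was not analysed here, so the KO label was not checked on it.

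Not every member gave a measurement. Of the 58, 12 were listed at 0 in all 24 libraries, among them H2-T22, H2-Q6, H2-Q8 and H2-Q9, and 10 more stayed under 50 counts in every library. Filtering on low counts left 38 members tested in at least 1 cell type. Class I genes are near copies of each other: of all 50-base windows of the coding sequence, 56.3% in H2-Q7, 43.6% in H2-T22, 36.5% in H2-T10, 24.2% in H2-D1 and 12.9% in H2-K1 also occur in another gene. How the deposited counts treated such reads is not given in the sources used here, so single class I values are uncertain, and the sum over all heavy chain symbols is given beside them. Among class II chains H2-Aa, H2-Ab1, H2-Eb1, H2-DMa and H2-Oa shared no window, while H2-DMb1 and H2-DMb2 shared 48.1% of theirs with each other.

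**Figure D1:**
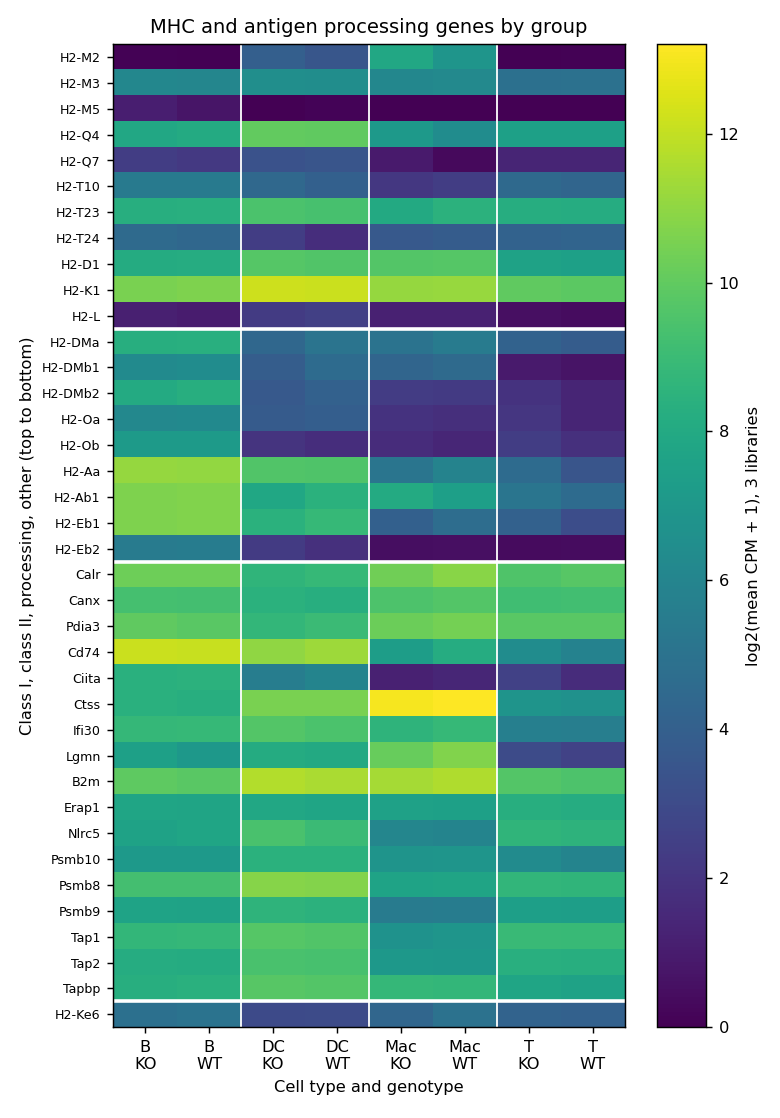
Mean level of each tested member, as log2(CPM + 1) over 3 libraries, in the 8 groups, with class I, class II, processing genes and H2-Ke6 in blocks from top to bottom. Colours compare along a row, since levels are not per length; class II rows are brightest in B cells, Ctss and Lgmn in macrophages, and H2-M2 in macrophages.

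Class I was highest in dendritic cells. The summed heavy chain level averaged 7499 ± 85 CPM in KO and 7070 ± 432 CPM in WT dendritic cells, 3715 ± 201 and 3795 ± 724 CPM in KO and WT macrophages, 2488 ± 301 and 2614 ± 185 CPM in KO and WT B cells, and 1741 ± 123 and 1672 ± 168 CPM in KO and WT T cells (SD, n = 3). H2-K1, a classical heavy chain, supplied 53.6 to 64.2% of those counts in every library. Its WT level was 4762, 4501 and 4171 CPM in dendritic cells, 2787, 2044 and 2027 CPM in macrophages, 1523, 1575 and 1725 CPM in B cells, and 892, 963 and 994 CPM in T cells, with no overlap between neighbours. H2-D1, the other classical heavy chain, did not separate the upper pair, with 792, 818 and 758 CPM in WT dendritic cells and 983, 834 and 736 CPM in WT macrophages (log2 difference -0.11, edgeR adjusted p = 0.31). Nor did B2m, the common light chain (log2 difference -0.10, adjusted p = 0.48). The induced proteasome subunit Psmb8 stood 3.01 higher on the log2 scale in WT dendritic cells than in WT macrophages, and Nlrc5 stood 3.09 higher.

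Some nonclassical heavy chains had their own pattern. H2-Q4, a Qa-region heavy chain, stood 3.55 higher on the log2 scale in WT dendritic cells than in WT macrophages. H2-M2 was a macrophage gene in this set, with 278, 261 and 188 CPM in KO macrophages and 178, 101 and 77.7 CPM in WT macrophages. In dendritic cells it had 20.9, 12.9 and 11.8 CPM in KO and 7.82, 17.4 and 6.23 CPM in WT libraries, and in B and T cells at most 0.0929 CPM. H2-M2 in KO stood above WT without overlap in macrophages, where 24.6% of all genes separated in either direction, yet its adjusted p was 0.15 there.

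Class II was highest in B cells and spanned a wider range. The sum of class II chains averaged 6363 ± 438 CPM in KO and 6430 ± 207 CPM in WT B cells, 1418 ± 82.8 and 1642 ± 326 CPM in KO and WT dendritic cells, 375 ± 25.3 and 335 ± 110 CPM in KO and WT macrophages, and 102 ± 12.6 and 61.5 ± 8.27 CPM in KO and WT T cells (SD, n = 3). Per kilobase of coding length, the ratio of class II to class I levels was 3.46 in WT B cells, 0.327 in WT dendritic cells, 0.132 in WT macrophages and 0.052 in WT T cells. Ciita had 390, 351 and 349 CPM in WT B cells, 58.3, 55.4 and 70.0 CPM in WT dendritic cells, 1.14, 1.5 and 2.24 CPM in WT macrophages, and 1.6, 1.83 and 3.01 CPM in WT T cells. Macrophages and T cells overlapped in Ciita (log2 difference -0.40, adjusted p = 0.21) although H2-Aa was 2.53 higher in macrophages on the log2 scale.

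Between WT cell types most members differed. B cells against T cells gave 27 members higher and 3 lower of 39 tested, with 56.2% of all genes called, 29% higher and 27.2% lower. All 9 class II chains tested were higher in B cells, at a median log2 difference of 6.98, against 0.72 for the 12 class I heavy chains and 0.01 for all genes. Dendritic cells against macrophages gave 25 higher and 9 lower, beside 80.4% of all genes called, 39.4% higher and 41% lower, and all 3 chaperones Calr, Canx and Pdia3 were lower in dendritic cells. B cells against dendritic cells gave 18 higher and 20 lower, beside 80.2% of all genes, 38% higher and 42.2% lower, with 9 of 9 class II chains higher in B cells and 9 of 12 class I heavy chains lower. Dendritic cells against T cells gave 30 higher and 6 lower, beside 81.6% of all genes, 41.8% higher and 39.8% lower. Macrophages against T cells gave 23 higher and 9 lower, beside 83.8% of all genes, 42.8% higher and 40.9% lower. B cells against macrophages gave 21 higher and 11 lower, beside 82.4% of all genes, 39.6% higher and 42.8% lower. The proteases had another order than the class II chains, and the log2 difference of B cells minus macrophages was -4.91 for Ctss and -3.67 for Lgmn.

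**Figure D2:**
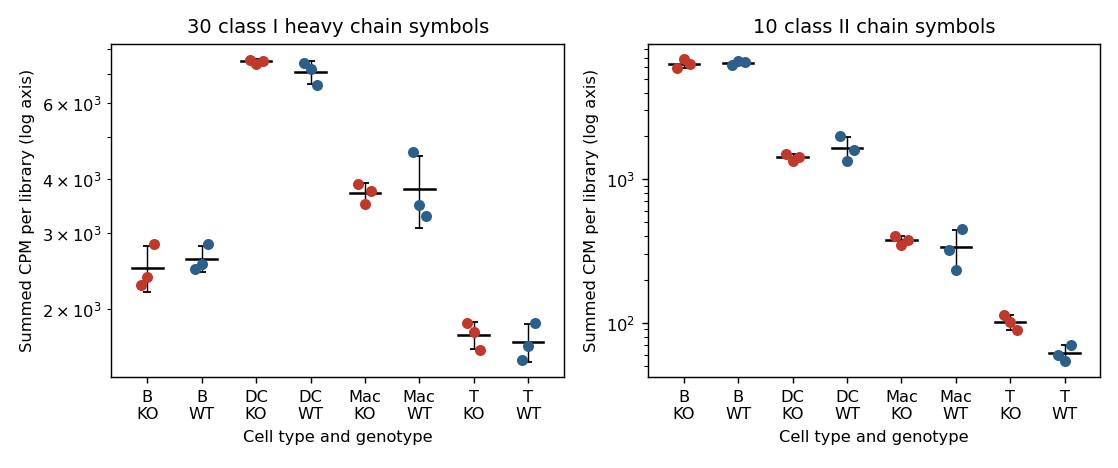
Summed CPM of the 30 class I heavy chain symbols (left) and the 10 class II chain symbols (right) per library on log axes, KO in red and WT in blue, with lines and bars at the mean ± SD of 3 libraries. KO and WT sums overlap in all panels except class II in T cells, where KO libraries lie between 89 and 114 CPM and WT libraries between 54.2 and 70.5 CPM.

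In B cells no class I or class II chain passed the edgeR test of KO against WT without a replicate block, and the protease Lgmn rose. Of 37 members tested 1 was called, at 2.7%, beside 3.2% of all genes, 2.09% higher and 1.11% lower. At an unadjusted p under 0.05 there were 6 members, beside 16.5% of all genes, 0 of them class I heavy chains and 1 a class II chain, and DESeq2 called Lgmn alone. Lgmn, asparaginyl endopeptidase, had 167, 177 and 205 CPM in KO and 118, 127 and 152 CPM in WT B cells. The libraries did not overlap, as in 21.9% of all genes, and Lgmn rose by 0.47 on the log2 scale (SE 0.10, edgeR adjusted p = 0.046). That call was lost without KO replicate 1 (adjusted p = 0.054), KO replicate 2 (0.097), WT replicate 1 (0.11) or WT replicate 2 (0.15). H2-Aa averaged 2183 ± 140 CPM in KO and 2114 ± 37.2 CPM in WT B cells (0.04, adjusted p = 0.73), and H2-K1 1516 ± 206 CPM in KO and 1608 ± 105 CPM in WT (-0.09, adjusted p = 0.7). Ciita, with its 7mer-m8 site, had 337, 351 and 294 CPM in KO and 390, 351 and 349 CPM in WT B cells (-0.15, adjusted p = 0.28). Cd74, the most abundant member in B cells, differed by 0.07 (adjusted p = 0.63). An edgeR fit blocked on replicate number, which no label states to pair libraries, called 7 members, 18.9% beside 12.4% of all genes. Lower in KO were H2-DMb2 (-0.17, adjusted p = 0.0011), Ciita (-0.15, 0.0046), Nlrc5 (-0.15, 0.014), H2-Q4 (-0.14, 0.014) and Tapbp. Higher were Pdia3 (0.15, 0.0015) and Lgmn. Without KO replicate 3, H2-K1 (-0.20, 0.039), H2-Q4 (-0.27, 0.011) and Nlrc5 (-0.24, 0.011) were called beside Lgmn, 10.8% beside 4.3% of all genes.

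In dendritic cells 3 members rose and 4 fell of 37 tested, 18.9% of them, beside 21.6% of all genes, 12.2% higher and 9.42% lower. The share of members was close to that of all genes. H2-DMb1, the beta chain of the H2-DM peptide exchanger, had 15.2, 13.8 and 12.5 CPM in KO and 28.3, 20.3 and 23.2 CPM in WT dendritic cells. All KO libraries lay below all WT libraries, a separation in either direction that 41.2% of all genes showed, and H2-DMb1 fell by 0.79 on the log2 scale (SE 0.15, adjusted p = 0.0037). It was called in all 14 other settings, with adjusted p from 5e-04 to 0.026. Its near copy H2-DMb2, with 11.4, 10.1 and 14.5 CPM in KO and 19.9, 12.7 and 15.3 CPM in WT, overlapped and was not called (-0.41, adjusted p = 0.14), so which of the pair the shared reads belong to is uncertain. H2-DMa, the partner alpha chain, averaged 20.4 ± 1.64 CPM in KO and 32.9 ± 12.4 CPM in WT (-0.69, adjusted p = 0.095).

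Among the 5 class II pathway genes in dendritic cells Ciita fell, and the other 4 did not pass the test, 2 of them below 0 and 2 above. Ciita had 45.8, 50.7 and 45.5 CPM in KO and 58.3, 55.4 and 70.0 CPM in WT dendritic cells (-0.37, SE 0.10, adjusted p = 0.026). These libraries did not overlap, as in 41.2% of all genes. H2-Ab1 had 251, 213 and 233 CPM in KO and 444, 243 and 358 CPM in WT, and WT replicate 2 lay inside the KO range (-0.59, adjusted p = 0.062). H2-Aa, the alpha chain of the same dimer, had 812, 732 and 777 CPM in KO and 856, 670 and 715 CPM in WT and differed by 0.05 (adjusted p = 0.76). The 2 chains of one dimer thus gave different values, with H2-Ab1 over H2-Aa at 0.309, 0.291 and 0.299 in KO libraries and 0.518, 0.363 and 0.501 in WT libraries, without overlap and with no test. H2-Eb1 differed by -0.39 (adjusted p = 0.086) and Cd74 by -0.29 (adjusted p = 0.09). DESeq2 called 9 members, beside 18% of all genes, among them H2-Ab1 (adjusted p = 0.0017), H2-Eb1 (0.025) and Cd74 (0.048), all lower in KO. In the other direction H2-Eb2, a class II beta chain with a seed match, averaged 3.91 ± 0.96 CPM in KO and 2.51 ± 0.611 CPM in WT, without overlap (0.64, adjusted p = 0.13). Ifi30, a thiol reductase of endosomes, averaged 825 ± 20.7 CPM in KO and 714 ± 80.5 CPM in WT, also without overlap (0.21, adjusted p = 0.12). In B cells H2-Eb2 was more abundant and did not rise, at 43.6 ± 7.92 CPM in KO and 46.1 ± 1.37 CPM in WT. Its fold change in the fit of all 24 libraries was -0.08 there and -0.09 in macrophages, where it was under 1 CPM. Of the 9 class II chains tested in dendritic cells 3 were above 0 and 6 below, with a median of -0.39, against -0.01 over all genes.

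On the class I side of dendritic cells Nlrc5, H2-T10 and H2-T24 rose in KO, and the classical heavy chains did not pass the test. Nlrc5, the class I coactivator, had 691, 719 and 631 CPM in KO and 404, 595 and 540 CPM in WT (0.41, SE 0.13, adjusted p = 0.043), with WT replicate 1 lowest. H2-T10 had 23.8, 19.5 and 19.2 CPM in KO and 16.2, 14.9 and 15.0 CPM in WT (0.44, SE 0.12, adjusted p = 0.029). H2-T24 had 3.71, 4.38 and 4.55 CPM in KO and 1.66, 2.42 and 2.74 CPM in WT (0.89, SE 0.26, adjusted p = 0.032). None of the 3 overlapped between genotypes, a separation in either direction that 41.2% of all genes showed. DESeq2 did not call H2-T10 (adjusted p = 0.077) or H2-T24 (adjusted p = 0.11). H2-K1 (0.09, adjusted p = 0.42), H2-D1 (0.10, 0.33), B2m (0.16, 0.22) and Tap1 (0.12, 0.25) did not pass. All 9 class I pathway genes were above 0, as they were in T cells, at a median here of 0.12 against -0.01 over all genes. The lectin chaperone Calr fell to 393 ± 11 CPM in KO, against 459 ± 21.1 CPM in WT (-0.22, adjusted p = 0.049), and Pdia3, an oxidoreductase of the loading complex, to 431 ± 12 CPM in KO, against 519 ± 41.3 CPM in WT (-0.27, adjusted p = 0.035). Canx was not called (0.12, adjusted p = 0.22).

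Of the 7 calls in dendritic cells, H2-DMb1 alone held when any 1 KO library was left out, and the other 6 were lost without KO replicate 1, 2 or 3, with adjusted p between 0.055 and 0.19. Without WT replicate 3 Calr, Ciita, H2-T10 and Nlrc5 were lost (adjusted p 0.15, 0.1, 0.085 and 0.083). Without WT replicate 1 H2-T24 was lost (adjusted p = 0.077), and Nlrc5 differed by 0.25 rather than 0.41. Without WT replicate 2 H2-T10 was lost (adjusted p = 0.055), and 12 members were called, 32.4% beside 24.2% of all genes, among them H2-Ab1, H2-Eb1, H2-DMa, H2-DMb2 and Cd74. The sum of 8 macrophage markers was 68.5, 57 and 58 CPM in KO and 72.5, 95 and 206 CPM in WT dendritic cells, with all 8 detected in both, highest in WT replicate 3. With that sum as a covariate 2 members were called, 5.41% beside 8.36% of all genes, H2-DMb1 (-0.87, adjusted p = 0.026) and Pdia3 (-0.38, adjusted p = 0.048), and Ciita was not (-0.20, adjusted p = 0.33). Conventional dendritic cell markers averaged 15132 CPM in KO and 11548 CPM in WT, and their part in these results was not tested.

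**Figure D3:**
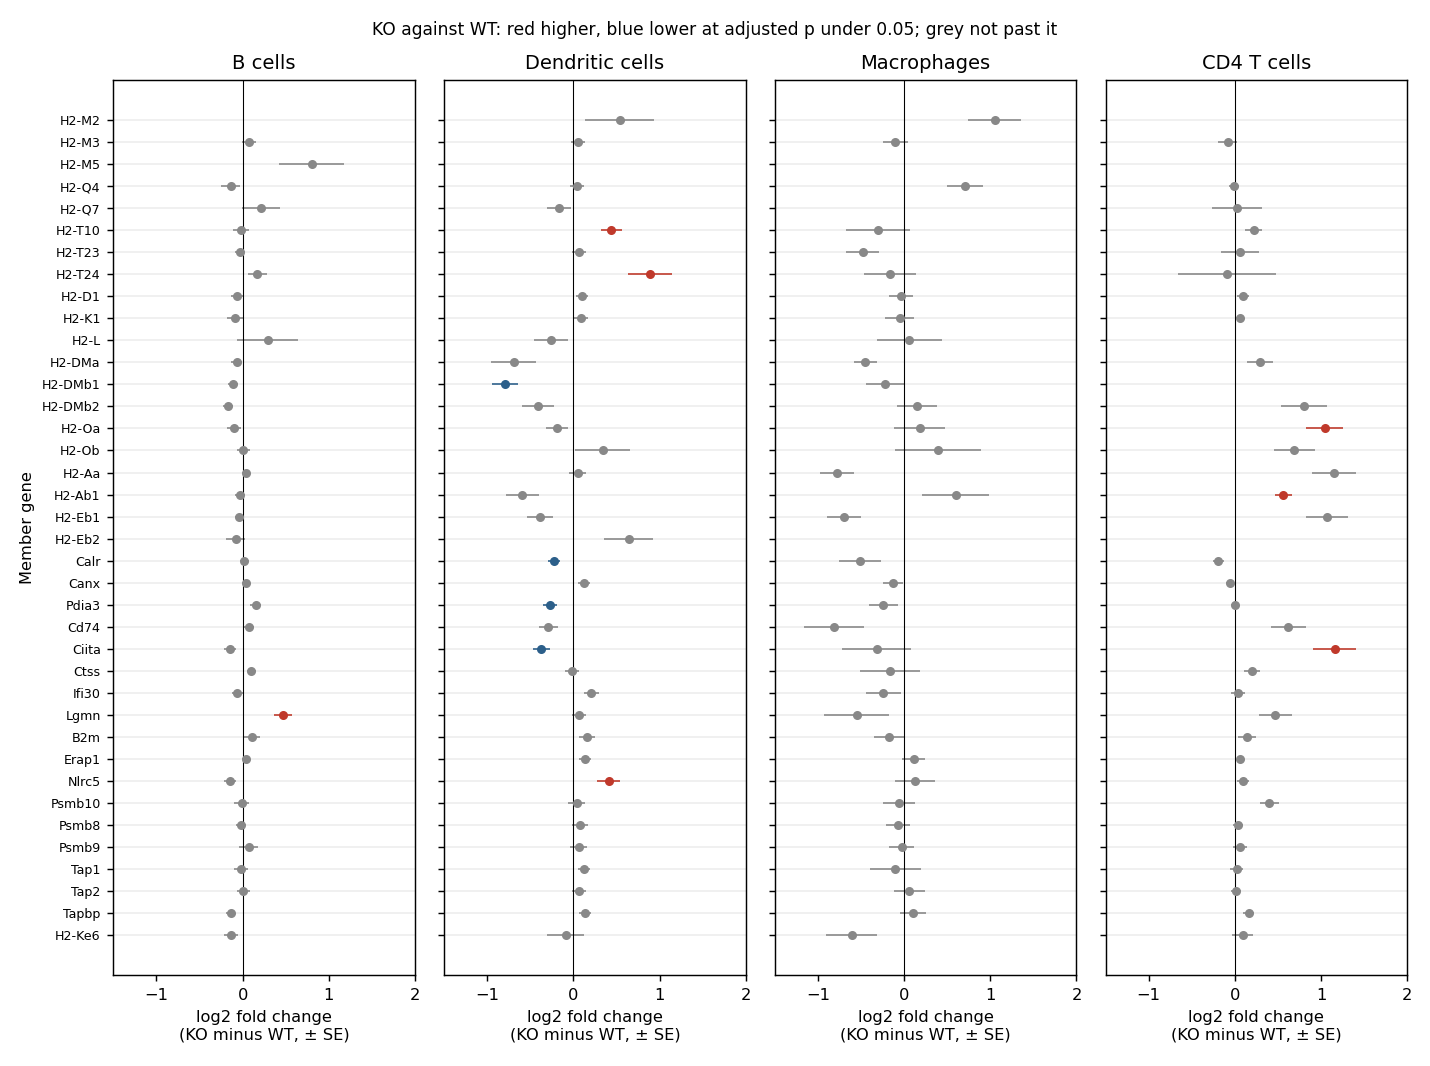
Log2 fold change, KO minus WT, with its SE for every tested member in each cell type from the edgeR fit. Red and blue points passed an adjusted p of 0.05 as higher and lower in KO, grey points did not, and class II chains lie right of 0 in T cells and on both sides of it in dendritic cells and macrophages.

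In macrophages edgeR called 0 of 35 members tested, beside 0.885% of all genes, 0.55% higher and 0.336% lower. At an unadjusted p under 0.05 there were 6 members, beside 17.8% of all genes, and DESeq2 called 3, beside 5.46% of all genes. No label states that replicate numbers pair KO and WT libraries. A fit of the macrophage libraries blocked on that number called 4 members, 11.4% beside 2.47% of all genes. They were H2-M2 and H2-Q4, higher in KO, and H2-Aa and H2-Eb1, lower in KO. The sum of 7 conventional dendritic cell markers was 351, 434 and 430 CPM in KO and 276, 317 and 228 CPM in WT macrophages, higher in KO without overlap, with 1 of the 7 at 0 in all of them, and its part in these values was not tested. H2-Q4 had 152, 112 and 150 CPM in KO and 106, 63.5 and 86.9 CPM in WT macrophages, without overlap, as in 24.6% of all genes (0.71, SE 0.21, adjusted p = 0.16, and 0.032 with the block). H2-Eb1 had 13.0, 14.9 and 18.6 CPM in KO and 23.3, 21.4 and 31.6 CPM in WT, also without overlap (-0.70, SE 0.20, adjusted p = 0.15, and 0.049 with the block).

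The 2 chains of the H2-A dimer had opposite signs in macrophages, and neither passed the test without the block. H2-Aa had 35.6, 31.3 and 35.8 CPM in KO and 60.8, 43.1 and 75.0 CPM in WT macrophages, and all KO libraries were lower (-0.78, SE 0.20, adjusted p = 0.13, and 0.05, under the threshold before rounding, with the block). H2-Ab1 had 295, 244 and 256 CPM in KO and 164, 83.4 and 281 CPM in WT, where WT replicate 3 lay within the KO range (0.60, adjusted p = 0.47). The H2-Ab1 to H2-Aa ratio of counts was 8.3, 7.8 and 7.15 in KO and 2.69, 1.93 and 3.75 in WT macrophages, with no overlap. In B cells the same ratio was 0.739, 0.759 and 0.74 in KO and 0.767, 0.817 and 0.772 in WT. It has no test and was noticed after the values were seen. Cd74 had 164, 144 and 186 CPM in KO and 228, 177 and 468 CPM in WT macrophages, overlapping (-0.81, adjusted p = 0.29), and Ciita was near 1 CPM in both (-0.32, adjusted p = 0.71).

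Class I in macrophages gave no shared direction. H2-K1 had 2296, 2014 and 2232 CPM in KO and 2787, 2044 and 2027 CPM in WT (-0.05, adjusted p = 0.91), H2-D1 differed by -0.04 (adjusted p = 0.89) and B2m by -0.17 (adjusted p = 0.63). Tap1 had 92.7, 78 and 148 CPM in KO and 142, 78 and 126 CPM in WT, with the ranges overlapping (-0.10, adjusted p = 0.89). Without WT replicate 3, 9 members were called, 25.7% beside 25.4% of all genes, 1 higher and 8 lower in KO, among them H2-Aa, H2-Ab1 and Lgmn, and without WT replicate 2 H2-Aa alone was called. Stromal and mesothelial markers summed to 326 to 761 CPM in KO and 129 to 343 CPM in WT macrophages, with all 5 detected in both, and their part in these values was not tested.

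**Figure D4:**
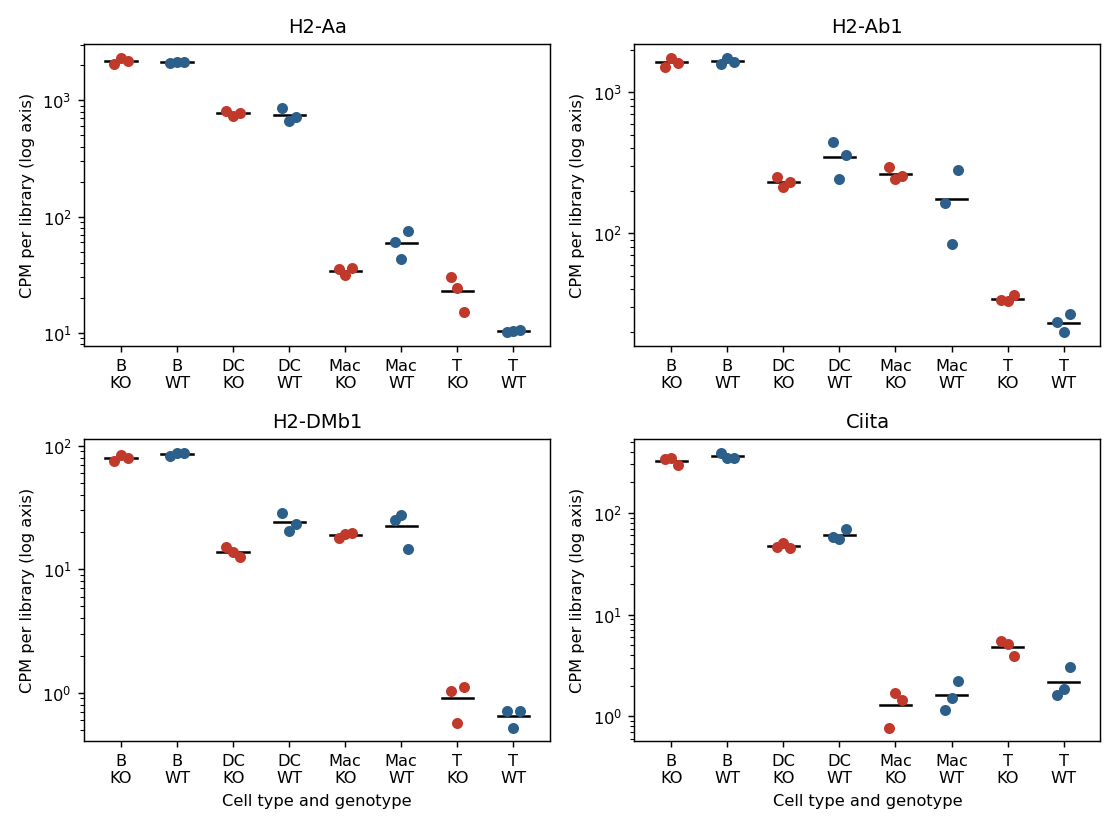
Level of H2-Aa, H2-Ab1, H2-DMb1 and Ciita in every library on log axes, KO in red and WT in blue, with a line at each mean. H2-DMb1 separates KO from WT in dendritic cells, H2-Aa does so in macrophages and T cells, and H2-Ab1 overlaps in macrophages.

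In T cells a pair of class II chains and Ciita rose in KO from a low level, and no class I gene passed the test. Of 33 members tested 3 rose and 0 fell, 9.09%, beside 2.15% of all genes, 1.35% higher and 0.798% lower. At an unadjusted p under 0.05 there were 14 of the 33 members, beside 18.1% of all genes. They were 6 of 7 class II chains, 4 of 5 class II pathway genes, 1 class I heavy chain, 2 class I pathway genes and 1 chaperone. DESeq2 called 5, beside 2.05% of all genes, which were H2-Ab1, H2-Aa, H2-Eb1, Ciita and, of class I, Psmb10. H2-Ab1 had 33.6, 33.1 and 36.3 CPM in KO and 23.3, 19.8 and 26.7 CPM in WT T cells (0.56, SE 0.10, adjusted p = 0.016). H2-Oa, the alpha chain of H2-DO, had 3.02, 3.26 and 3.53 CPM in KO and 1.6, 1.65 and 1.5 CPM in WT (1.04, SE 0.22, adjusted p = 0.035). Ciita had 5.52, 5.13 and 3.87 CPM in KO and 1.6, 1.83 and 3.01 CPM in WT (1.16, SE 0.25, adjusted p = 0.035). None of the 3 overlapped between genotypes, a separation that 22.5% of all genes showed.

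Among the 7 class II chains tested in T cells all were above 0, with a median log2 difference of 0.80, against -0.00 over all genes. H2-Aa had 30, 24.4 and 15.0 CPM in KO and 10.1, 10.4 and 10.5 CPM in WT, a difference of 1.15 that missed the threshold (adjusted p = 0.091). H2-Eb1 differed by 1.07 (adjusted p = 0.06). DESeq2 called both, H2-Aa at an adjusted p of 6.6e-06 and H2-Eb1 at 0.00031, and so did the fit of all 24 libraries (0.0049 and 0.022). Cd74 differed by 0.62 (adjusted p = 0.22). The class I chains H2-K1 (0.06, adjusted p = 0.6) and H2-D1 (0.09, adjusted p = 0.5), and B2m (0.14, adjusted p = 0.53), Nlrc5 (0.09, adjusted p = 0.52) and Tap1 (0.02, adjusted p = 0.92), did not pass. All 9 class I pathway genes were above 0 in T cells, at a median of 0.06.

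B cell marker levels are given beside these class II values. Their sum was highest in KO replicates 1 and 2. In KO replicates 1, 2 and 3 H2-Ab1 had 33.6, 33.1 and 36.3 CPM and H2-Oa 3.02, 3.26 and 3.53 CPM, which differed little. The 6 markers, all detected in both groups, summed to 44.5, 44.2 and 26 CPM in KO and 17.6, 19 and 32.1 CPM in WT T cells, against 3158 to 3552 CPM in B cells. Per unit of that sum H2-Aa was 0.673, 0.552 and 0.576 in KO and 0.571, 0.546 and 0.328 in WT T cells, while B cell libraries ranged from 0.598 to 0.676. H2-Ab1 per unit of that sum was 0.755, 0.748 and 1.4 in KO and 1.32, 1.04 and 0.832 in WT T cells, above the 0.461 to 0.528 of B cell libraries. H2-Oa per unit was 0.0678, 0.0737 and 0.136 in KO and 0.0909, 0.0872 and 0.0468 in WT T cells. In B cell libraries it ranged from 0.0195 to 0.0232. Ciita per unit of that sum was 0.124, 0.116 and 0.149 in KO and 0.0909, 0.0963 and 0.0937 in WT T cells, without overlap, while B cell libraries ranged from 0.0858 to 0.12. With the log2 marker sum as a covariate the 3 calls in T cells were lost, where H2-Ab1 had 0.50 (adjusted p = 0.07), H2-Oa 1.17 (adjusted p = 0.068) and Ciita 0.60 (adjusted p = 0.27). How much of these levels other cells contribute was not tested.

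The T cell calls also depended on the fit and on single libraries. H2-Oa was not called by DESeq2 (adjusted p = 0.15), and H2-Ab1 was not in the fit of all 24 libraries (adjusted p = 0.65). H2-Ab1, H2-Oa and Ciita were lost without KO replicate 1 (adjusted p 0.095, 0.13 and 0.18), without KO replicate 2 (0.052, 0.079 and 0.091), without KO replicate 3 (0.097, 0.14 and 0.07) and without WT replicate 2 (0.078, 0.14 and 0.18). Without KO replicate 3, whose B cell marker sum is the lowest in KO, H2-Aa (1.39, adjusted p = 0.00061), H2-Eb1 (1.26, adjusted p = 0.024) and Cd74 (0.78, adjusted p = 0.034) were called instead.

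**Figure D5:**
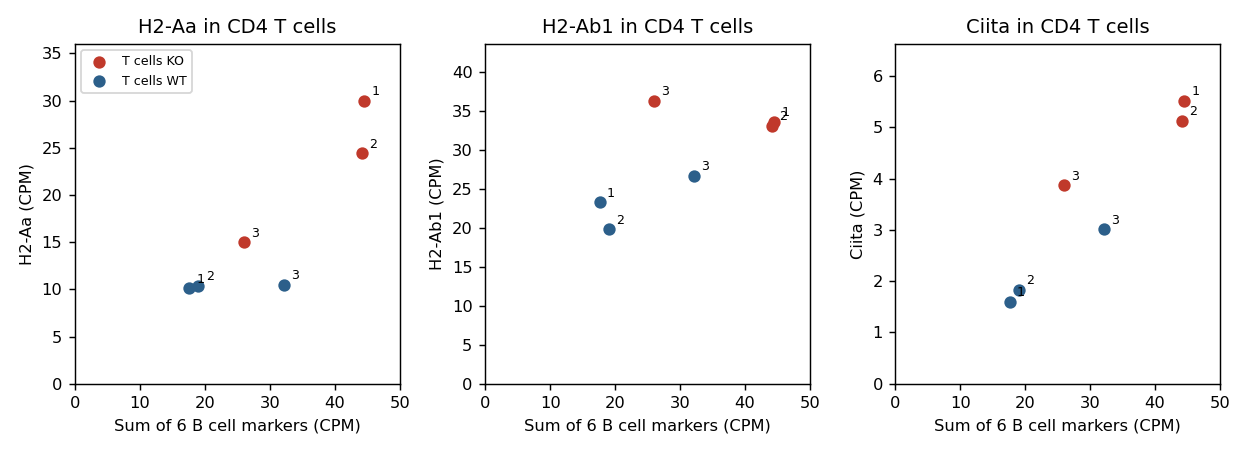
Level of H2-Aa, H2-Ab1 and Ciita against the sum of 6 B cell markers in the 6 T cell libraries, in CPM, KO in red and WT in blue, numbered by replicate. KO replicates 1 and 2 have the highest marker sums, 44.5 and 44.2 CPM, KO replicate 3 has 26 CPM, and WT replicates 1, 2 and 3 have 17.6, 19 and 32.1 CPM.

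The KO effect was then compared between cell types in one fit of all 24 libraries. Of 39 members tested 7 differed between the 4 cell types, beside 12.6% of all genes. They were the class II chains H2-Aa, H2-Eb1, H2-Oa and H2-DMb2, the class II pathway genes Ciita and Cd74, and H2-Q4 of class I. In that fit the KO minus WT log2 fold change of Ciita was 1.16 in T cells, against -0.33 in macrophages, -0.37 in dendritic cells and -0.15 in B cells. For dendritic cells against T cells the difference in Ciita was -1.53 (SE 0.27, adjusted p = 0.0011). For macrophages against T cells the difference in H2-Aa was -1.96 (SE 0.27, adjusted p = 0.00023), and that in H2-Eb1 was -1.79 (SE 0.30, adjusted p = 0.0015). For B cells against T cells no pair of these 7 passed, with adjusted p from 0.057 for H2-Oa to 1.0 for H2-Q4. H2-DMb1 itself was not called in this comparison (adjusted p = 0.094).

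Genes around these pathways were counted from 4 lists of general knowledge. Among 17 genes of class II transcription and turnover, 1 rose and 2 fell in dendritic cells, where 21.6% of all genes were called. These were the Y box factor subunit Nfya (0.37, adjusted p = 0.0064), and Ctsb (-0.37, adjusted p = 0.032) and Tfeb (-0.83, adjusted p = 0.0015), a protease and a regulator of lysosomal genes. In B cells Ctsd, a lysosomal protease, rose by 0.27 (adjusted p = 0.049). The lowest adjusted p of this list was 0.18 in macrophages and 0.21 in T cells. Among 16 genes of class I loading and proteasome, 3 rose and 1 fell in dendritic cells, beside the same 21.6% of all genes. The interferon-regulated factor Irf1 (0.65, adjusted p = 2e-04) and the peptidase Tpp2 (0.37, adjusted p = 0.0058) were among those that rose, and the peptidase Thop1 fell (-0.74, adjusted p = 0.041).

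The class I-like and costimulation list gave 2 higher and 1 lower of 5 tested in dendritic cells, beside 12.2% of all genes higher and 9.42% lower. Cd1d1, which presents lipids, had 250 CPM in KO and 171 CPM in WT (0.54, adjusted p = 0.0062), and Cd40 differed by 0.27 (adjusted p = 0.018). Fcgrt, the neonatal Fc receptor that also pairs with B2m, fell to 20.6 CPM in KO, against 40 CPM in WT (-0.96, adjusted p = 0.0015). Cd40 rose in B cells too (0.22, adjusted p = 0.046). Of 22 interferon response genes 9 rose and 3 fell in dendritic cells, beside 12.2% of all genes higher and 9.42% lower, at a median of 0.34 against -0.01 over all genes. The median of the 19 tested in T cells was 0.35, against -0.00 over all genes. It was -0.24 for the 19 tested in macrophages, against -0.02 over all genes, and 0.04 in B cells, against -0.00. Among the dendritic cell calls Mx1 (0.95, adjusted p = 4e-05) and Ifit2 (1.74, adjusted p = 0.0016) rose, and Oasl2 (-0.67, adjusted p = 0.00052) fell. The lowest adjusted p of the list was 0.25 in B cells, 0.22 in macrophages and 0.054 in T cells.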

How the data were processed

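Per the labels, total RNA was extracted with TRIzol LS and made into TruSeq libraries read as paired ends. The deposited files hold the authors' raw counts for each gene symbol, with "cds" in their names as the only word on the features counted. Per the submitters' processing notes STAR and cutadapt were used with the mm9 build. No label states the counting tool, its strand setting or how it treated reads shared by near-identical genes. Lines naming no gene, 51.7 to 61.4% of all counts, were left out. CPM were computed here from counts and TMM library sizes of all 24 libraries.

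Within each cell type the 3 KO and 3 WT libraries were compared by edgeR 4.0.16 (R 4.3.3; TMM, filterByExpr, robust glmQLFit and glmQLFTest, two-sided), with p-values adjusted by Benjamini-Hochberg over all tested genes and called under 0.05. Fold changes are log2 of KO over WT, and SE is the absolute fold change over the square root of F. WT cell types and differences in KO effect were tested in 1 fit of 8 group means, with the first-named cell type minus the second. Sums, ratios and motifs had no test. The code was tested on simulated data. DESeq2 1.42.0, other normalizations and filters, a replicate block and leaving out each library were alternatives.

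Groups and replicate numbers come from the titles. Deviations from the group means were correlated between KO and WT libraries. Same-numbered pairs gave 0.12, 0.30 and 0.39 in macrophages and 0.18, 0.03 and 0.21 in B cells. They gave -0.02, 0.14 and -0.09 in dendritic cells and 0.04, 0.06 and -0.24 in T cells. Differently numbered pairs reached 0.11 in macrophages, 0.05 in B cells, 0.16 in dendritic cells and 0.25 in T cells. The counts of every pair of libraries in a group differed by more than sampling noise, with a chi-square per gene from 2.08 to 161. Precision is limited by 3 libraries a group and, for low genes, by depth.

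Names, coding lengths and UTRs came from GENCODE M21 (GRCm38), which matched 54 of 58 members, and promoters and the microRNA from RefSeq (GRCm38.p6). No position of the files' own build was used. Members and lists were chosen with earlier results of these data known. Named by rule were B2m, H2-K1, H2-D1, Nlrc5, Tap1, H2-Aa, H2-Ab1, H2-Eb1, Cd74 and Ciita, each member called in KO against WT, and each whose KO effect differed between cell types. Others were named after their values were seen.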

Additional observations from a re-analysis of the deposited data

Results flagged for a closer look

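For 7 members the KO effect differed between the 4 cell types by the interaction test of edgeR over all 24 libraries. The adjusted p was 0.00047 for H2-Aa, 0.0017 for H2-Eb1, 0.0033 for Ciita, 0.0052 for H2-Oa, 0.029 for H2-Q4, 0.03 for Cd74 and 0.045 for H2-DMb2. In that fit H2-Aa gave a log2 fold change, KO over WT, of 0.05 in B cells and 0.05 in dendritic cells, with -0.8 in macrophages and 1.16 in T cells, and H2-Eb1 gave -0.04, -0.39, -0.71 and 1.08 in the same order. Cd74 gave 0.07, -0.29, -0.82 and 0.62, H2-Oa gave -0.1, -0.19, 0.17 and 1.04, and H2-DMb2 gave -0.17, -0.42, 0.12 and 0.8. H2-Q4 differed otherwise, with 0.69 in macrophages against -0.13, 0.04 and -0.01 in B cells, dendritic cells and T cells. The T cell values stand beside B cell marker sums of 44.5, 44.2 and 26 CPM in KO and 17.6, 19 and 32.1 CPM in WT libraries. All members share 1 spread per gene in this fit, although macrophage libraries varied most.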

How the results depend on the processing

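The counts between WT cell types moved little under every alternative run. For the class sums only DESeq2 size factors were tried, and they moved little. No library was left out for the sums. Depth and 3 libraries a group limit the rest, and the causes of the changes below were not tested.

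Members called in KO against WT numbered 1 (B), 7 (dendritic), 0 (macrophage) and 3 (T). In B cells they were 0 with no expression filter (beside 3.69% of all genes) and 0 in the fit of all 24 libraries (0.661%). In dendritic cells they were 3 in the fit of all 24 libraries (beside 19.3% of all genes) and 2 with the macrophage marker sum as a covariate (8.36%). In macrophages they were 3 by DESeq2 (beside 5.46% of all genes) and 9 in the fit of all 24 libraries (14.3%). In T cells they were 5 by DESeq2 (beside 2.05% of all genes) and 0 with the B cell marker sum as a covariate (2.64%). Both covariates were chosen after seeing the data. Leaving out 1 library gave 0 to 4 for B, 1 to 12 for dendritic, 0 to 9 for macrophage and 0 to 6 for T cells, with 9 in macrophages without WT replicate 3. The share of all genes called then ran from 1.37 to 4.3% in B cells and 11 to 27% in dendritic cells. It ran from 0 to 25.4% in macrophages and 0.305 to 5.69% in T cells. Members whose KO effect differs between cell types, 7, numbered 4 to 15 with 1 library left out, the lowest without macrophage KO replicate 1 and the highest without macrophage WT replicate 3. These 2 fits called 1174 of 12376 and 3619 of 12377 genes. The block gave 4 in macrophages, given above. In B cells it gave 7, 18.9% beside 12.4% of all genes, of which 2 were higher and 5 lower. In dendritic cells it called 8, 21.6% beside 21.5% of all genes, of which 5 were among the 7. Calr (adjusted p = 0.075) and Pdia3 (0.052) were lost there, and H2-DMa, H2-Ab1 (0.0042) and H2-Eb1 (0.023) were gained. In T cells it called 4, 12.1% beside 2.61% of all genes, of which 1 was among the 3. Ciita (adjusted p = 0.066) and H2-Oa (0.055) were lost there, and Psmb10, Cd74 (0.013) and Calr (0.019) were gained. The WT ratio of class II to class I, on CPM 2.47, 0.232, 0.0913 and 0.0368 in B cells, dendritic cells, macrophages and T cells, was 3.46, 0.327, 0.132 and 0.052 per kb of coding length.

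Among 75 single results 42 alternative values changed sign, 31 of them with 1 library left out, and 0 of them passed the threshold in either fit. The ranges with 1 library left out were, on the log2 scale in B cells, -0.03 to 0.06 for Calr, -0.00 to 0.09 for H2-Aa, -0.09 to 0.02 for H2-Ab1, -0.13 to 0.00 for H2-D1, -0.09 to 0.01 for H2-Eb1, -0.08 to 0.10 for H2-T10 and -0.12 to 0.04 for Tap1. In dendritic cells they were -0.02 to 0.15 for H2-Aa and -0.01 to 0.09 for H2-Q4. In macrophages they were -0.13 to 0.07 for H2-D1, -0.00 to 0.35 for H2-DMb2, -0.13 to 0.11 for H2-K1, -0.62 to 0.08 for H2-T10, -0.40 to 0.25 for H2-T24, -0.15 to 0.28 for Nlrc5 and -0.42 to 0.08 for Tap1. In T cells they were -0.07 to 0.05 for H2-Q4, -0.43 to 0.63 for H2-T24, -0.02 to 0.02 for Pdia3 and -0.05 to 0.09 for Tap1. With the macrophage marker covariate dendritic cells gave -0.04 for H2-Aa, -0.01 for H2-K1 and -0.04 for H2-Q4. With the B cell marker covariate T cells gave -0.07 for B2m, -0.07 for H2-D1, -0.06 for H2-K1, -0.08 for Nlrc5, -0.04 for Pdia3 and -0.15 for Tap1. In T cells Pdia3 was -0.00 with no expression filter and H2-T24 was 0.02 with the replicate block.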
